A study of Homo sapiens with 6 samples.

Results

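The 9 genes described here encode enzymes that carry squalene through to cholesterol: SQLE, LSS, CYP51A1, TM7SF2, MSMO1, NSDHL, EBP, SC5D and DHCR7. They were chosen by name, in pathway order, with earlier results of these data known. All 9 were found among the 37902 genes of the deposited table and passed the filter on low counts that left 14684 genes for testing. RNA-seq was performed on ARPE-19, an established human line from the retinal pigment epithelium (RPE), with 3 WT libraries and 3 libraries of a POLDIP2 knockout line (POLDIP2 KO). Both lines were sampled at day 3 under regular maintenance, in a medium that contained fetal bovine serum. The POLDIP2 KO line was made from ARPE-19 by lentiviral delivery of SpCas9 and a POLDIP2 sgRNA, then selected in puromycin and expanded, with no isolation of single clones described. WT was not described as carrying a vector or as selected, so loss of POLDIP2 and the making of the line cannot be told apart, and the replicates measure variation within 1 knockout line.

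Cholesterol is built from acetyl-CoA. The mevalonate arm of the pathway makes squalene, and the enzymes described here close squalene into a ring and trim the product to cholesterol in the endoplasmic reticulum. Transcription of the enzymes is raised by SREBP-2, a membrane-bound transcription factor that SCAP escorts to the Golgi for cleavage when sterols are scarce and that INSIG proteins hold back when sterols are plentiful. RPE cells also take up cholesterol from lipoproteins and from the outer segments of photoreceptors.

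Values of a line are given throughout in the order of replicates 1, 2 and 3. The targeted gene, POLDIP2, stood at 3919, 4827 and 4798 normalised counts in WT against 1063, 1248 and 1143 in POLDIP2 KO, as the labels say. The libraries held 31532797 to 45795509 recovered reads, which are whole counts that go back to Salmon estimates. Each of the 9 genes had 639 to 9987 of them in every library. Of 10 RPE markers, 7 passed the filter, and their summed level was 71742 to 82310 in WT and 67393 to 89435 in POLDIP2 KO, most of it from the keratins KRT8 and KRT18. MITF, OTX2 and BEST1 had WT means of 3831, 762 and 333 normalised counts and PMEL and RLBP1 of 84.7 and 43.3, while RPE65 and TTR were listed at 0 in all libraries and TYR had at most 2.98. The summed level of 5 markers of fibroblasts, leukocytes and endothelium was 2103 to 6782 in WT and 2063 to 14150 in POLDIP2 KO, and it was highest in replicate 1 of both lines. It came from COL1A1, COL1A2 and PDGFRB, the 3 of the 5 that passed the filter, while PTPRC and PECAM1 had at most 7.38 normalised counts in any library. COL1A1, a collagen chain of fibroblasts, had 2147, 320 and 677 normalised counts in WT and 6956, 760 and 1953 in POLDIP2 KO and was higher in POLDIP2 KO in all 3 pairs. Its limma adjusted p value was 0.981 in the unpaired fit and 0.0436 with the replicate block, where DESeq2 gave 1.8e-21 and edgeR 0.0603. COL1A2 had 9.45, 2.01 and 1.04 normalised counts in WT and 614, 0 and 1.99 in POLDIP2 KO. PDGFRB had 4623, 1778 and 2223 in WT and 6572, 1293 and 2880 in POLDIP2 KO. Unlike COL1A1, PDGFRB was lower in POLDIP2 KO in replicate 2. COL1A2 had only 2 recovered reads in WT and 0 in POLDIP2 KO in that replicate, too few to give a direction. In bulk RNA, fewer cells with a transcript and less transcript per cell cannot be told apart.

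Mean levels of all 9 sterol enzymes were lower in POLDIP2 KO than in WT. The POLDIP2 KO means were 48.9% to 74.6% of the WT means, with MSMO1, CYP51A1 and DHCR7 at the lower end and SQLE and EBP at the upper end. For 7 of the 9 genes every POLDIP2 KO library lay below every WT library, where 5.44% of all genes tested showed this. The exceptions were LSS and TM7SF2. None of the 9 passed limma's test at a Benjamini-Hochberg adjusted p value under 0.05, so the differences are given below as values and not as calls.

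Over the 9 genes the log2 fold changes ran from -1.04 to -0.44 around a median of -0.66, whereas the median over all 14684 genes was -0.00029. Fold changes are differences of log2(normalised count + 1), POLDIP2 KO minus WT, the scale on which limma was run. The lowest limma adjusted p value was 0.108 for CYP51A1 and the highest 0.687 for EBP, and 0.0885% of all genes were called lower. At an unadjusted p value under 0.05 limma gave all 9 as lower, against 3.47% of all genes, and so did edgeR against 3.46% and DESeq2 against 3.72%. These tests used the same libraries, and the 9 genes were chosen with earlier results of these data known. The counts therefore describe the 9 genes and are not independent support. A fold change over 1.5 in the lower direction was seen for 6 of the 9 genes and for 6.33% of all genes. With 3 libraries per line, 0.1 is the smallest p value that an exact two-sided permutation test can reach. Libraries of a line are labelled as biological replicates.

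**Figure D1:**
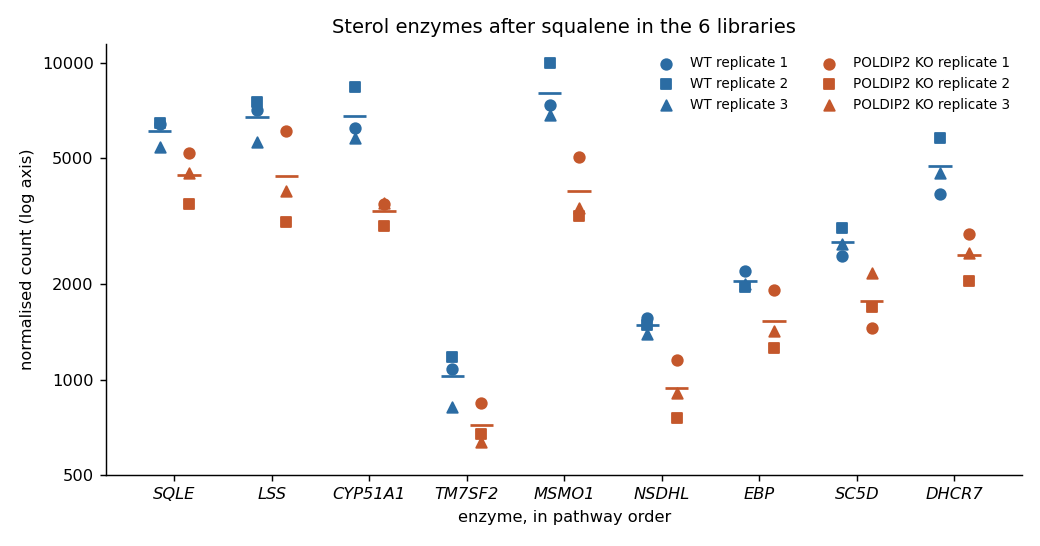
Normalised count (log axis) of the 9 sterol enzymes, in pathway order, in the 3 WT libraries (blue) and the 3 POLDIP2 KO libraries (orange), with a marker shape for each replicate number and a line at each mean. The colours are apart for 7 of the 9 genes and overlap for LSS and TM7SF2.

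SQLE encodes squalene epoxidase, which adds oxygen to squalene and is a control point of the pathway. It lies on chromosome 8 of GRCh38, from 124998497 to 125022283. Its normalised counts were 6422, 6463 and 5451 in WT against 5185, 3599 and 4499 in POLDIP2 KO. All POLDIP2 KO libraries lay below all WT libraries, although POLDIP2 KO replicate 1 came close to WT replicate 3. On the log2 scale SQLE differed by -0.48 (95% confidence interval -0.84 to -0.11, limma adjusted p = 0.547).

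LSS, lanosterol synthase, folds the product of SQLE into the first sterol of the pathway. The gene is on chromosome 21, from 46188141 to 46228824. The WT libraries had 7139, 7532 and 5618 normalised counts of LSS, and the POLDIP2 KO libraries 6122, 3157 and 3954. The lines overlapped, because POLDIP2 KO replicate 1 was above WT replicate 3. LSS had the widest interval of the 9 genes, from -1.25 to -0.08 around an estimate of -0.66 (limma adjusted p = 0.681).

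CYP51A1 is the cytochrome P450 that removes a methyl group from lanosterol, and the target family of azole drugs in fungi. It lies on chromosome 7, from 92084987 to 92134803. Counts were 6244, 8410 and 5788 in WT and 3581, 3049 and 3611 in POLDIP2 KO. The 3 POLDIP2 KO libraries were close together and far below the lowest WT library. Mean ± SD was 6814 ± 1401 in WT and 3414 ± 317 in POLDIP2 KO (n = 3 libraries per line). The log2 fold change of CYP51A1 was -0.98 (95% confidence interval -1.36 to -0.60, limma adjusted p = 0.108), and by p value the gene ranked 67 of 14684. In GENCODE release 44, 68.2% of its exonic bases are shared with another protein-coding gene model on the same strand, ENSG00000285772, that had at most 4.92 normalised counts in any library. A further such model, ENSG00000289027, is not among the genes of the deposited table and shares 67.8% of the exonic bases of CYP51A1.

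TM7SF2, which reduces the double bond that CYP51A1 leaves behind, had the lowest counts of the 9 genes. Its position is chromosome 11, from 65111845 to 65116384. TM7SF2 had 1076, 1182 and 819 normalised counts in the WT replicates and 844, 674 and 634 in the POLDIP2 KO replicates. POLDIP2 KO replicate 1 was above WT replicate 3, so the lines overlapped. Limma gave a log2 fold change of -0.51 with an interval from -0.94 to -0.07 (adjusted p = 0.655). LBR, the lamin B receptor, carries out the same reduction. Its log2 fold change was -0.28 with an interval from -0.73 to 0.17, and its libraries overlapped.

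MSMO1 and NSDHL act in turn to remove the paired methyl groups at one carbon of the ring. MSMO1, the methylsterol oxidase of this step, lies on chromosome 4 from 165327667 to 165343164. Its normalised counts were 7356, 10021 and 6854 in WT against 5057, 3292 and 3490 in POLDIP2 KO. No library of one line reached into the range of the other. Means were 8077 ± 1702 in WT and 3947 ± 967 in POLDIP2 KO (± SD, n = 3 libraries per line), a log2 fold change of -1.04 with an interval from -1.54 to -0.54 (limma adjusted p = 0.199). This was the largest difference among the 9 genes.

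NSDHL encodes the dehydrogenase that follows MSMO1, and lies on the X chromosome from 152830967 to 152869729. The WT libraries had 1564, 1490 and 1398 normalised counts of NSDHL and the POLDIP2 KO libraries 1149, 755 and 908. NSDHL varied least among the WT libraries, with an SD of 83.3 normalised counts, and all POLDIP2 KO libraries were below their range. Its log2 fold change was -0.68 (interval -1.08 to -0.29, limma adjusted p = 0.292).

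EBP, the isomerase that moves a double bond in the ring and binds the ligand emopamil, lies on the X chromosome from 48521799 to 48528716. For EBP the WT libraries had 2197, 1966 and 2003 normalised counts, and the POLDIP2 KO libraries 1922, 1258 and 1420. The lines did not overlap, but POLDIP2 KO replicate 1 was close to the lowest WT library. EBP had the smallest difference of the 9 genes, a log2 fold change of -0.44 with an interval from -0.84 to -0.05 (limma adjusted p = 0.687). A gene model on the same strand that is not among the genes of the deposited table shares 36.4% of the exonic bases of EBP.

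SC5D, a desaturase of the late pathway, is on chromosome 11 from 121292681 to 121313410. Counts of SC5D were 2458, 3017 and 2689 in WT and 1452, 1693 and 2166 in POLDIP2 KO. The lines were apart, and in contrast to most of the other genes POLDIP2 KO replicate 1 was the lowest library. Limma gave a log2 fold change of -0.63 with an interval from -1.03 to -0.24 (adjusted p = 0.355).

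DHCR7 reduces 7-dehydrocholesterol, the precursor of vitamin D, to cholesterol, and lies on chromosome 11 from 71428193 to 71452868. DHCR7 had 3849, 5824 and 4502 normalised counts in WT, and 2875, 2045 and 2520 in POLDIP2 KO. All POLDIP2 KO libraries lay below all WT libraries. The DHCR7 means were 4725 ± 1006 and 2480 ± 416 (± SD, n = 3 libraries per line), with a log2 fold change of -0.92 (interval -1.37 to -0.47, limma adjusted p = 0.205).

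**Figure D2:**
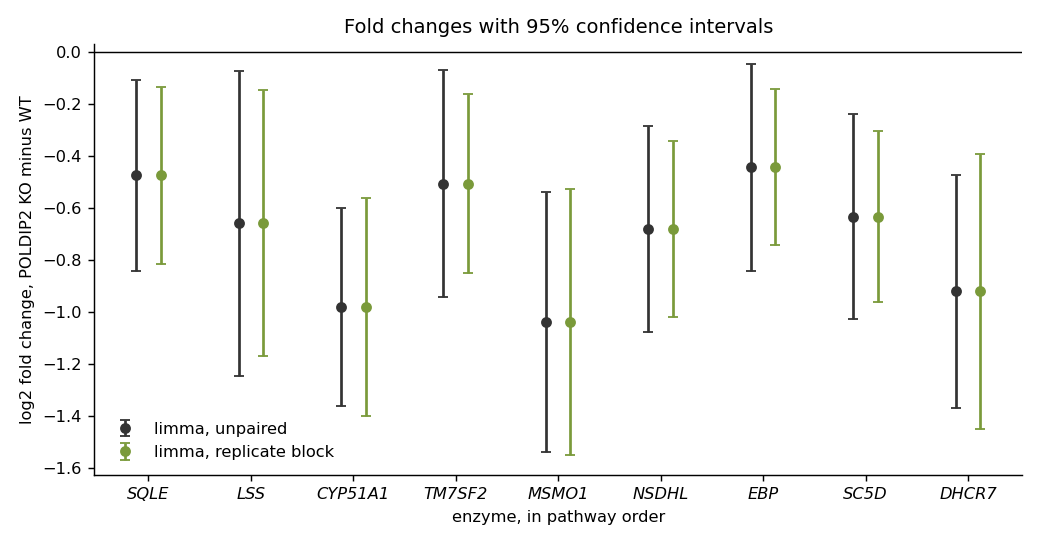
Log2 fold change, POLDIP2 KO minus WT, of the 9 sterol enzymes with 95% confidence intervals from limma (bars), in black for the unpaired fit and in green for the fit blocked by replicate number. All intervals lie below 0, and the point estimates run from -1.04 for MSMO1 to -0.44 for EBP.

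The 9 genes were also compared between libraries with the same replicate number. All 9 were lower in POLDIP2 KO in all 3 pairs, as were 15.7% of all genes tested. The median log2 difference over the 9 genes was -0.42 in replicate 1, -0.98 in replicate 2 and -0.51 in replicate 3. For each of the 9 genes the largest difference was that of replicate 2, from -1.61 for MSMO1 to -0.64 for EBP. In the same pairs the median over all genes was 0.0074, 0.00064 and 0. WT replicate 2 was the highest WT library for 7 genes, and POLDIP2 KO replicate 2 was the lowest POLDIP2 KO library for 7. POLDIP2 KO replicate 1 was the highest POLDIP2 KO library for 7 genes, and it was also the library with the highest summed level of the 5 fibroblast, leukocyte and endothelial markers, whose part in these values was not tested. Without this library the median over the 9 genes was -0.84 on the log2 scale.

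**Figure D3:**
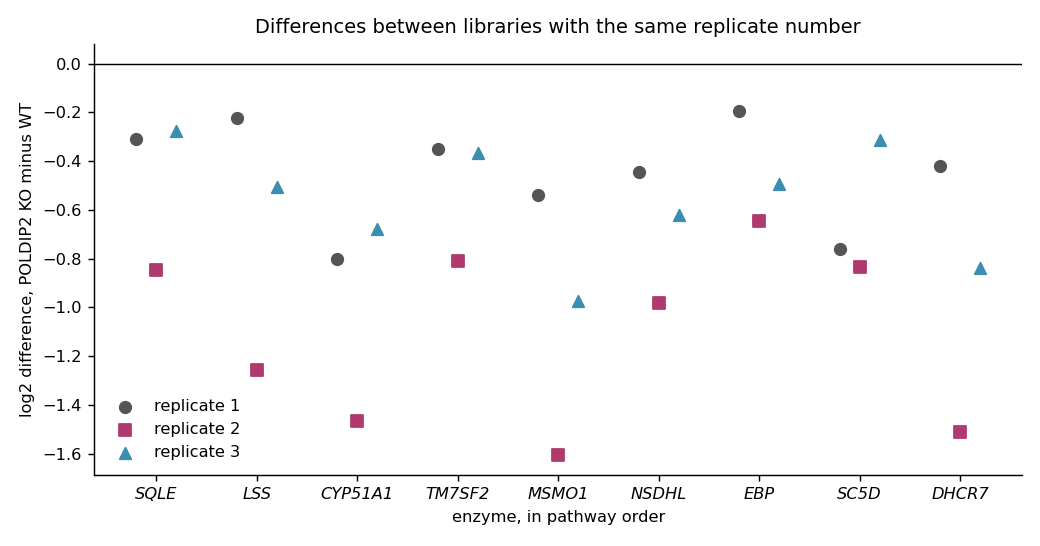
Log2 difference, POLDIP2 KO minus WT, between libraries that share a replicate number, for the 9 sterol enzymes in pathway order, with a marker for each replicate number. All 27 points lie below 0, and the square of replicate 2 is the lowest point of every gene.

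When replicate number entered limma as a block, none of the 9 genes passed the adjusted threshold either, with adjusted p values from 0.115 to 0.317, where 0.0885% of all genes were called lower. All 9 had an unadjusted p value under 0.05 in that fit, against 5.58% of all genes. The edgeR quasi-likelihood test on the recovered reads gave adjusted p values from 0.128 for CYP51A1 to 0.743 for LSS, so that none passed, and it called 0.0545% of all genes lower. DESeq2 on the same reads called 4 of the 9 lower, CYP51A1, MSMO1, DHCR7 and NSDHL, with adjusted p values of 1.91e-05, 0.00109, 0.00154 and 0.0366. It called 0.992% of all genes lower. With the replicate block DESeq2 called 7 of the 9 and 1.89% of all genes. The added calls were SC5D at an adjusted p value of 0.00252, LSS at 0.0357 and SQLE at 0.0464. EBP and TM7SF2 were not called by any of these tests, with DESeq2 adjusted p values of 0.0701 and 0.105 under the block.

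The genes of the later part of the pathway did not share one level. Counts were divided by the length of the Ensembl canonical transcript so that genes could be set side by side. Per kb of transcript, MSMO1 was highest in WT, at 3627 ± 764 normalised counts (mean ± SD, n = 3 libraries). CYP51A1 followed at 2160 ± 444, SQLE at 2063 ± 193, EBP at 1827 ± 111, DHCR7 at 1799 ± 383 and LSS at 1384 ± 207. Among these 5 genes the neighbours in the order overlapped in their libraries. NSDHL at 810 ± 45.5, TM7SF2 at 650 ± 118 and SC5D at 397 ± 41.0 were lower, each without overlap with the gene above it. In POLDIP2 KO MSMO1 was again highest and SC5D lowest, but CYP51A1 stood at position 4, below SQLE and EBP, at 1082 ± 100.3 normalised counts per kb. Its POLDIP2 KO libraries, from 966 to 1145, overlapped those of EBP and DHCR7, while those of SQLE began at 1215. In WT replicates 1 and 3, CYP51A1 was already below SQLE. The transcript lengths in use in these cells were not measured, so the order holds for the annotated lengths.

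The log2 ratio of MSMO1 to EBP, the genes with the largest and smallest difference, was 1.74, 2.35 and 1.77 in WT. In POLDIP2 KO it was 1.40, 1.39 and 1.30, below all WT libraries. This pair was picked after its values were seen, so no test is given.

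The starts of the genes were then examined for motifs that are known from sterol-regulated promoters. RefSeq windows from 250 bases before to 50 bases after a start (GRCh38.p14) were at hand for 8 of the 9 genes, SQLE being the exception, and SC5D and DHCR7 had 2 windows each. CCAAT, the box bound by NF-Y, was searched on both strands and was found in 8 of these 10 windows and in 7 of the 8 genes, against 34.6% of all 35116 windows. The windows of SC5D overlap and hold the same CCAAT. CYP51A1 had none in its single window. In the mevalonate arm CCAAT was found in 5 of the 6 genes with a window, and among the other genes after squalene in 3 of 5. Among genes of sterol sensing and uptake it was found in 3 of 8. The strict sterol regulatory element TCACNCCAC was found in 0 of the 10 windows and in 1.13% of all windows, and GGGCGG, the Sp1 box, in 8 of the 10 and in 45.0% of all. In the other lists searched, the sterol element was found only in SREBF2, the gene of SREBP-2. Among windows of the genes tested, 34.3% held CCAAT, 1.12% the sterol element and 65.2% the Sp1 box. In the 10 windows no CCAAT overlapped a GGGCGG. These are matches of letters, not sites of binding.

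MSMO1 and EBP, the genes with the largest and smallest difference, are shown because both carry 2 CCAAT boxes within 130 bases of the start, and CYP51A1 as the gene without a match. Each run gives the 130 bases before the start, 5′ to 3′ on the strand of the gene, with CCAAT and its reverse complement ATTGG in capitals. The MSMO1 run is chr4:165327539-165327668 (plus strand), the EBP run chrX:48521678-48521807 (plus) and the CYP51A1 run chr7:92134478-92134607 (minus). The start used for CYP51A1 is that of its Ensembl canonical transcript, and a longer GENCODE transcript begins upstream of the printed run, at a start that was not searched.
MSMO1: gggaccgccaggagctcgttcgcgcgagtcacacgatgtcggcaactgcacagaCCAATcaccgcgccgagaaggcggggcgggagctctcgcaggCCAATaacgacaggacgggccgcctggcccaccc
EBP: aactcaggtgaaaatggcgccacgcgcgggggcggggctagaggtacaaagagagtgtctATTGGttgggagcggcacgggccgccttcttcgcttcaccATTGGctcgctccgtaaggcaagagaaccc
CYP51A1: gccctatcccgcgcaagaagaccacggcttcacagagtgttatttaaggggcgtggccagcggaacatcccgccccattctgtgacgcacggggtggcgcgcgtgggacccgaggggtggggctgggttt

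Positions count back from the start, where -1 is the base before it. In MSMO1 the boxes of the run begin at -76 and -34, and another pair lies further upstream in the window. NSDHL has 5 matches in its window, with a CCAAT from -113 and an ATTGG from -110 that overlap. EBP has ATTGG at -70 to -66 and at -30 to -26, and a further one upstream. DHCR7 has CCAAT at -94 to -90 and ATTGG at -48 to -44, while the window at its other RefSeq start holds none. LSS, TM7SF2 and each SC5D window have 1 match. Whether the matches bear on the differences between the lines was not tested.

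To place the 9 genes in their pathway, 7 further lists were examined, with 42 genes of which 38 passed the filter. No gene of the 38 passed the adjusted threshold in limma or edgeR. Unadjusted, limma gave 15 as lower and 1 as higher at a p value under 0.05, where 3.47% and 3% of all genes were so. The lowest limma adjusted p value of the lists was 0.0706. DESeq2 called 10 lower and 1 higher, against 0.992% and 0.903% of all genes.

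Of the 6 other genes after squalene, 3 did not overlap between the lines, all lower in POLDIP2 KO (5.44% of all genes). HSD17B7, the ketoreductase that acts after NSDHL, had 671, 765 and 768 normalised counts in WT and 535, 364 and 394 in POLDIP2 KO. Its log2 fold change was -0.79 (limma adjusted p = 0.253). ERG28, a scaffold for the enzymes of methyl removal, had a log2 fold change of -0.33 with an interval from -0.67 to 0.01. EBPL, a homologue of EBP, had a log2 fold change of 0.39 with an interval from -0.05 to 0.83 and was higher in POLDIP2 KO in all 3 pairs.

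The mevalonate arm, which feeds squalene to SQLE, had a median log2 fold change of -0.93 over its 9 genes. In 8 of the 9 the lines did not overlap, all lower in POLDIP2 KO, and DESeq2 called 7 lower, where 5.44% and 0.992% of all genes were so. HMGCS1, the HMG-CoA synthase, had the largest difference with 8139, 7815 and 5518 normalised counts in WT and 4022, 1719 and 2182 in POLDIP2 KO, which is -1.51 as log2 fold change (adjusted p = 0.21 by limma). IDI1, the isomerase that makes dimethylallyl diphosphate, had 5450, 6070 and 4540 in WT and 2766, 2141 and 2597 in POLDIP2 KO, with a log2 fold change of -1.10 and a limma adjusted p value of 0.0706. Around these lay ACAT2 at -0.91, MVK at -0.93, MVD at -1.39, FDPS at -0.77 and FDFT1, the squalene synthase, at -0.70. The exception was PMVK, a kinase of the arm, at -0.03 with an interval from -0.28 to 0.21. The medians of the 2 arms were not tested against each other.

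Among the genes that sense sterols and take them up, 9 of 10 passed the filter and their median log2 fold change was 0.07. INSIG1, which is itself a target of SREBP and retains SCAP, had 4003, 6432 and 4475 normalised counts in WT and 2230, 1670 and 2283 in POLDIP2 KO, which is -1.25 as log2 fold change (adjusted p = 0.11 by limma). STARD4, a carrier of sterols between membranes, was at -0.59 and SREBF2, the gene of SREBP-2, at -0.29, and both were without overlap between the lines. The interval of STARD4 ran from -0.99 to -0.19, and that of SREBF2 from -0.60 to 0.01. SCAP, INSIG2, SREBF1 and the proteases MBTPS1 and MBTPS2 had log2 fold changes from 0.07 to 0.15 with overlapping libraries.

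CYB5A, a cytochrome b5 that passes electrons to SC5D and other microsomal oxidases, was the one gene of the lists with all POLDIP2 KO libraries above all WT libraries, as were 5.46% of all genes. It had 861, 908 and 879 normalised counts in WT and 1345, 1201 and 1195 in POLDIP2 KO. The log2 fold change of 0.50 had an interval from 0.24 to 0.75 (limma adjusted p = 0.231), and DESeq2 gave an adjusted p value of 0.0082. Among the 10 list genes that DESeq2 called lower, its adjusted p values were 1.2e-07 for IDI1, 8.9e-06 for INSIG1, 0.00091 for HMGCS1 and 0.018 for HSD17B7. CYB5B was at -0.25 without overlap (interval -0.50 to 0.01), and POR, which serves SQLE and CYP51A1, at -0.35 with overlap. TMEM97, a sterol-binding relative of EBP that lies near POLDIP2 on chromosome 17, was at -0.48 without overlap (limma adjusted p = 0.508). PGRMC1, a partner of CYP51A1, was at -0.01 and CYB5R3 at 0.29.

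CYP27A1, which hydroxylates the side chain, had 169, 179 and 151 normalised counts in WT and 130, 58.6 and 46.7 in POLDIP2 KO, which is -1.21 as log2 fold change (adjusted p = 0.538 by limma). SOAT1, the enzyme of cholesterol esterification, was at -0.05, and CYP46A1 at -0.03. CH25H and CYP7B1 were close to 0 counts. Of the efflux and uptake genes induced by LXR, ABCA1 was at -0.02 with an interval from -1.23 to 1.19 and MYLIP at -0.41, while ABCG1 was below the filter. The ubiquitin ligase MARCHF6, which marks SQLE for degradation, was at 0.06, and its partners UBE2G2 and UBE2J2 were at 0.07 and -0.16. UBE2J2 was without overlap between the lines, with an interval from -0.39 to 0.07.

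**Figure D4:**
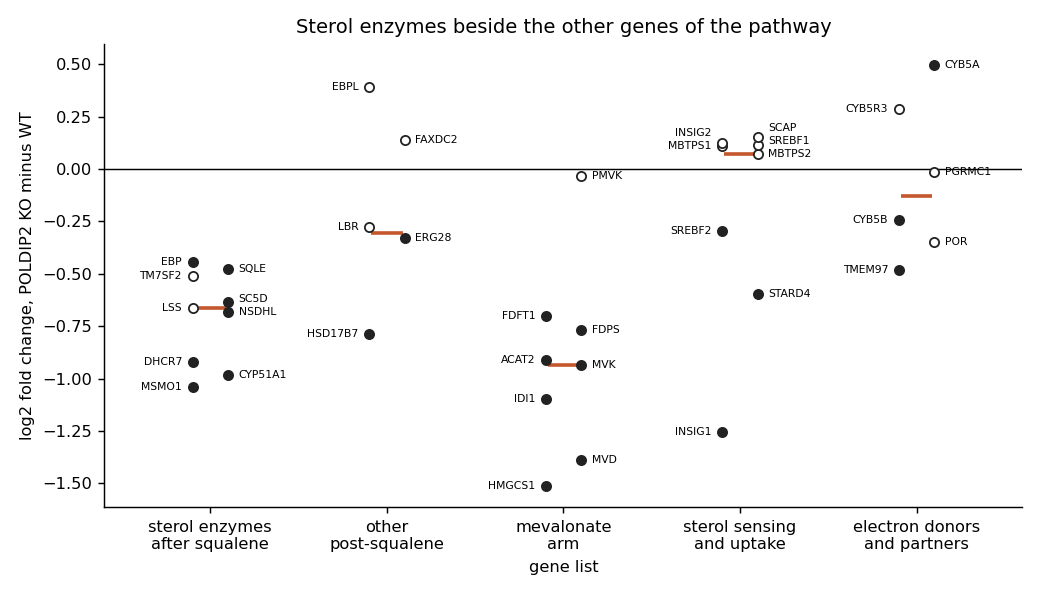
Log2 fold change, POLDIP2 KO minus WT, of the sterol enzymes after squalene and of 4 other gene lists of the pathway, with filled points where the 3 libraries of one line do not overlap those of the other, open points where they do, and an orange line at each median over all tested genes of a list, including 3 that are not drawn. The medians are -0.66 for the sterol enzymes, -0.30 for the other genes after squalene, -0.93 for the mevalonate arm, 0.07 for sensing and uptake and -0.13 for electron donors and partners.

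The genes whose values across the 6 libraries were most like the mean profile of the 9 enzymes were sought among 10908 other genes with a mean of at least 200 normalised counts. Likeness was the root mean square difference of centred log2 values over the 6 libraries, where 0 is the same profile. FDPS, the farnesyl diphosphate synthase, came closest at 0.053, followed by WSCD1 at 0.074, CRYBG2 at 0.10, MMAB at 0.11, MGMT at 0.12, STARD4 at 0.12, CCSER2 at 0.13 and HSD17B7 at 0.13. FDPS had 9093, 9807 and 7562 normalised counts in WT and 6035, 4461 and 5063 in POLDIP2 KO. The 9 enzymes themselves lay 0.094 to 0.27 from their mean, so FDPS and WSCD1 were nearer to it than any of the 9. Both were picked as the closest of 10908 genes, and a search of that size favours small distances. Of the 8 genes, 3 belong to the lists above, which hold 38 of the 14684 genes tested.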

How the data were processed

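Stranded polyadenylated RNA-seq libraries of WT and POLDIP2 KO cells were analysed, 3 per line. Before they deposited the table, the authors quantified reads with Salmon 1.8, brought them to gene level (GRCh38) through tximport and scaled the counts by size factors of DESeq2 1.34.0. The signal in each deposited column is therefore a normalised count. The annotation release is not given in the sources used here. The table has 6 library columns, with 0 left out. Symbols and positions were taken from GENCODE release 44, by gene identifier, for 34152 genes.

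Expression was compared with limma 3.58.1 in R 4.3.3 (lmFit, eBayes with trend) on log2(normalised count + 1). Genes needed a mean normalised count of 10 or more, with Benjamini-Hochberg adjustment over all genes tested and a threshold of 0.05. Dividing each column by its smallest positive value gave whole numbers (100% within 0.001), called recovered reads here. They go back to Salmon estimates and are not counts of single reads. The largest distance from a whole number was 0.000345. This limit also holds in WT replicate 2 and POLDIP2 KO replicate 3, where the smallest positive value is close to 1. The recovered reads were tested with edgeR 4.0.16 and DESeq2 1.42.0, and these tests were added after the values had been seen. Limma with and without the block, and edgeR and DESeq2 without it, were tested on simulated data that held no replicate effect. The blocked edgeR and DESeq2 fits and the other alternative settings were not tested in this way. Figures were drawn with Python 3.11.15, pandas 2.3.3 and matplotlib 3.10.9.

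Within each line, deviations from the line mean were correlated across genes. Libraries with the same replicate number correlated at 0.315, 0.137 and 0.129, all above 0.1. The number was therefore used as a replicate block in an alternative. Libraries with different numbers correlated at -0.259 to 0.147, the highest being WT replicate 3 with POLDIP2 KO replicate 2. The value of 0.1 thus does not separate same-numbered libraries from the others. Calls with the block depend on a pairing that these correlations do not establish. The genes named are the 9 enzymes, POLDIP2, the list genes that passed a threshold, did not overlap between lines or were the most or least changed of their list, and the 8 genes of most similar profile. Any other list gene was picked with its values in view. The members, the lists and the motifs were chosen with earlier results of these data known. Some genes of the lists count in the totals and are not reported here by name.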

Additional observations from a re-analysis of the deposited data

How the results depend on the processing

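The number of the 9 enzymes called lower was 0 in limma with all libraries and stayed 0 with pseudocounts of 0.5 and 5, no filter, a filter at a mean of 50, quantile normalisation, recentred libraries, eBayes without trend or with robust estimation, the replicate block, each library left out in turn, and both libraries of a replicate number left out. It was also 0 by edgeR with and without the replicate block, and 4 by DESeq2 on recovered reads and 7 by DESeq2 with the replicate block, with the cause not tested. At an unadjusted p value under 0.05, limma, edgeR and DESeq2 each gave 9 of 9, where 3.47%, 3.46% and 3.72% of all genes were lower. The median log2 fold change over the enzymes ran from -0.84 without POLDIP2 KO replicate 1 to -0.54 without POLDIP2 KO replicate 2 and was -0.53 without both libraries of replicate 2. Every log2 fold change of the 9 genes stayed below 0 in all of these fits, from -1.29 to -0.29. The 7 genes without overlap and the 9 lower in all pairs were as many after quantile normalisation and after recentring as before. In the other lists, 0 genes were called by limma, with or without the replicate block, and 0 to 1 with a library left out, the 1 being MVD without POLDIP2 KO replicate 1 (limma adjusted p = 0.0454). The block changed no call of the 9 enzymes in limma or edgeR.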
